A study of Mus musculus with 6 samples.

Results

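The nuclear genes of oxidative phosphorylation considered here are 70 of the 18193 genes measured in mouse carotid body and adrenal medulla. They were chosen by gene symbol, as genes named for subunits of NADH dehydrogenase (complex I, 34 genes), of the cytochrome bc1 complex (complex III, 9 genes), of cytochrome c oxidase (complex IV, 9 genes) and of ATP synthase (complex V, 17 genes), together with cytochrome c itself (Cycs, 1 gene). Assembly factors were not included, nor were 8 genes that are tissue-specific or low-oxygen isoforms or the relatives of such isoforms. Complex IV members were drawn from symbols starting with Cox5, Cox6, Cox7 or Cox8, so Cox4 genes were not among them. Each gene was read from the brightest of its probe sets that carry its symbol alone. The symbols fit the label except for Cox7a2l, which matched by its name and was counted under complex IV although it is known as an assembly factor of respiratory supercomplexes.

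The samples were 6 Affymetrix arrays, 3 of carotid body and 3 of adrenal medulla, from untreated adult mice of strain C57/BL6. Each carotid body sample pooled 18 organs and each adrenal medulla sample 10 organs, and every pool came from 10 mice. Samples that carry the same number came from 1 cohort of animals, so cohorts 1, 2 and 3 each gave both tissues. The 2 tissues are related catecholamine-producing organs; glomus cells of the carotid body sense arterial oxygen, while chromaffin cells of the adrenal medulla secrete adrenaline and noradrenaline into the blood.

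In oxidative phosphorylation, electrons from NADH enter at complex I, pass through ubiquinone to complex III, and travel on cytochrome c to complex IV, which reduces oxygen to water. The proton gradient built by these complexes drives complex V, which makes ATP. In glomus cells, complex I and complex IV have both been proposed to take part in the response to low oxygen.

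Nuclear respiratory factor 1 is known to bind promoters of many of these genes at palindromes of the form GCGCA, any base, then GCGC, and ETS-family factors and YY1 bind others, at cores such as CCGGAAG and AAGATGGCG. The promoter windows shown are matches to this NRF1 palindrome in members whose array values are given further on. They were taken from the RefSeq promoters of build GRCm38.p6, which run from 250 bases before to 50 bases after the gene start, are written 5′ to 3′ on the strand of the gene, and have the match in capitals. For Uqcrc1 and Atp5g3 the match lies on the opposite strand, so the capitals show its reverse complement.
Uqcrc1, chr9:108936643-108936672, plus strand: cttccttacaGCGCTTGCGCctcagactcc
Ndufa5, chr6:24527697-24527726, minus strand: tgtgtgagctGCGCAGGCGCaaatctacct
Ndufb4, chr16:37654371-37654400, minus strand: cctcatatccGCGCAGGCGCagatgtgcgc
Atp5g3, chr2:73911295-73911324, minus strand: gagccgcaccGCGCTTGCGCgcccagcccc
Atp5h, chr11:115420041-115420070, minus strand: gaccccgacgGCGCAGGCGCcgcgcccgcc

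RefSeq promoters were matched for 59 of the 70 members and for 14368 of the measured genes. Searched on both strands, the NRF1 palindrome was present in 12 of the 59 member promoters (20.3%), against 8.63% of all measured genes with a promoter. CCGGAAG was present in 13 (22.0%, against 15%) and AAGATGGCG in 6 (10.2%, against 2.54%). None of the 3 strings contains another, and 2 members held both the palindrome and CCGGAAG. By complex, the palindrome was found in 5 of 31 complex I promoters, 1 of 5 of complex III, 0 of 7 of complex IV and 6 of 15 of complex V (40.0%). Of the 8 promoters matched for members lower in carotid body, 1 held it (12.5%), that of Uqcrc1. A match is a description of these letters and says nothing of binding.

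Most members lay slightly lower in carotid body than in adrenal medulla, and few by enough to be called. A gene was called where the two-sided p from limma was under 0.05 after Benjamini-Hochberg adjustment across 45037 probe sets; differences are on the log2 scale, carotid body minus adrenal medulla. Of the 70 members, 9 fell in carotid body, 0 rose and 61 were not called. The share that fell, 12.9%, was below the 16.5% of all measured genes that were lower by the same rule and the 19.5% of bright genes, those at or above the 75th percentile of brightness. Higher calls made up 10.9% of all genes and 14.0% of bright genes. The number called lower is therefore near the background of this comparison and is not a result about these genes. The 0 called higher lay below the background shares of higher calls, and this gap was not tested. None of the 9 reached a 2-fold difference, against 6.08% of all genes called and at least 2-fold lower and 5.91% at least 2-fold higher (5.32% and 6.7% of bright genes). At an unadjusted p under 0.05, 21 of the 70 members were lower, against 24.2% of all genes and 29.9% of bright genes, and 1 was higher, against 14.9% and 18.4%.

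The direction was shared more widely than the calls. The difference was negative for 56 of 70 members (80.0%), against 54.7% of all genes and 61.7% of bright genes. In 45 members the carotid body value was the lower in all 3 cohort pairs, a pattern held by 35.3% of all genes and 45.2% of bright genes. The 3 carotid body values lay entirely below the 3 adrenal medulla values in 27 members (26.1% of all genes and 33.4% of bright ones) and entirely above them in 1 member (17.8% and 20.4%). The median difference over the members was -0.21, with quartiles of -0.37 and -0.06 and a range from -1.05 to 0.40, or 86.3% of the adrenal medulla level. The same median was -0.17, -0.21 and -0.21 in cohorts 1, 2 and 3 (SD 0.03), against -0.04 over all genes and -0.13 over bright genes, the set that holds 65 of the 70 members. Array medians of the members were 11.71, 11.51 and 11.55 in carotid body against 11.87, 11.67 and 11.68 in adrenal medulla, so the 2 tissues overlapped at this level and the shift shows within cohorts.

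**Figure D1:**
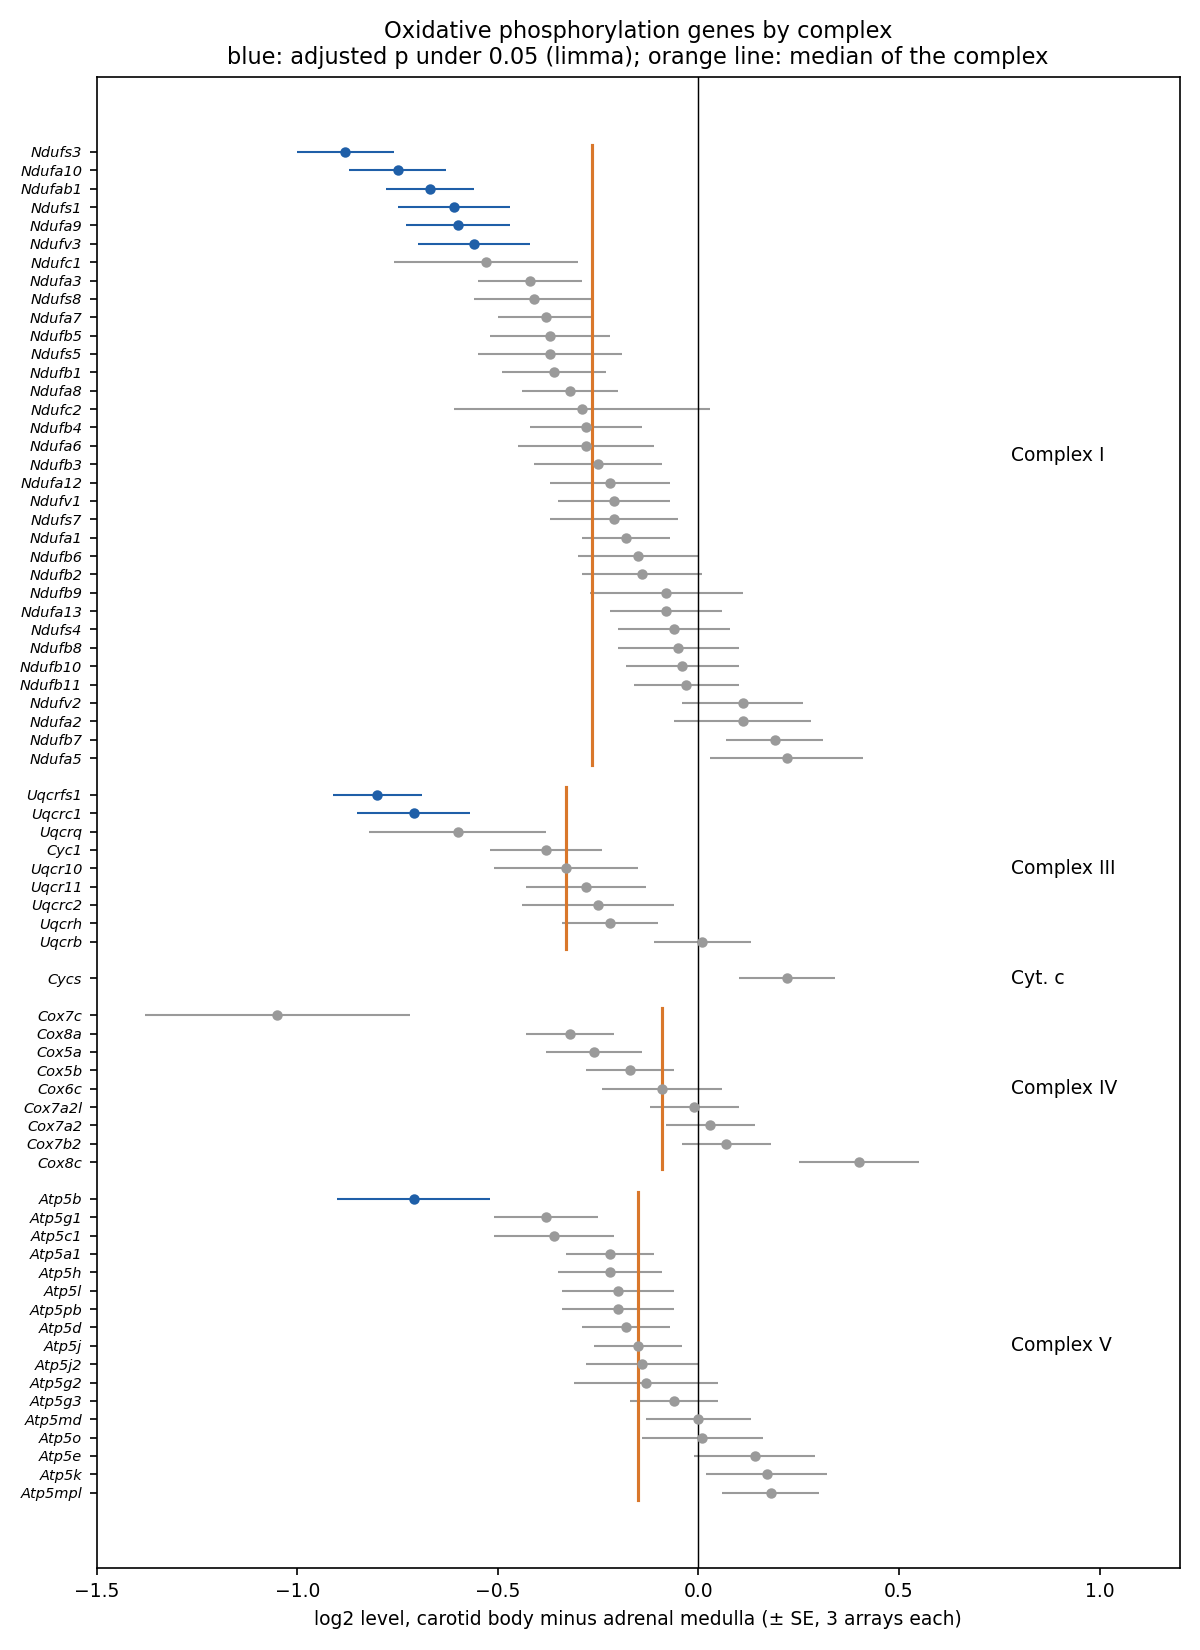
Difference in log2 level (carotid body minus adrenal medulla, horizontal axis) of each of the 70 members, grouped by complex, as points with SE bars from 3 arrays per tissue. The 9 blue points are the members with an adjusted p under 0.05; orange lines mark the medians of -0.27 for complex I, -0.33 for complex III, -0.09 for complex IV and -0.15 for complex V.

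Several measured properties of the samples moved with tissue. Of markers of steroid-producing adrenal cortex, 9 of 10 were lower in carotid body; their summed log2 level was 16.16 to 16.61 in adrenal medulla, 10.94 and 10.58 in carotid body arrays 2 and 3, and 14.91 in carotid body array 1, which stood apart. Fibroblast and matrix markers were higher in carotid body for 9 of 9 genes (summed level 15.58 to 15.88 against 12.94 to 13.23), as were 7 of 8 smooth muscle, 5 of 6 glial and 4 of 8 endothelial markers. Of 9 glomus and chromaffin cell markers, 6 were lower and 2 higher in carotid body (15.12 to 15.33 against 16.28 to 16.66), with Th, the rate-limiting enzyme of catecholamine synthesis, at 11.42 or above on every array. Of 12 markers of skeletal muscle, a tissue rich in mitochondria, 2 were lower and 1 was higher (8.38 to 8.57 against 8.90 to 9.10); Ckm was at most 4.99 and the brown fat marker Ucp1 at most 4.64 on any array. RNA length was read from the Gapdh controls, whose 3′ probe sets exceed the 5′ ones by more as labelled RNA shortens; this gap was 1.45, 1.04 and 0.59 in carotid body against 0.51, 0.13 and 0.61 in adrenal medulla. Xist, expressed from the inactive X chromosome, was 8.84 to 10.96 in carotid body against 4.45 to 5.60 in adrenal medulla. The part of cell makeup, RNA length and the sex of the pools in the differences was not tested, and in these bulk samples fewer cells of a type and less RNA per cell cannot be told apart. Without carotid body array 1, 13 members were lower (18.6%, against 13.8% of all genes) and the median was -0.28; without adrenal medulla array 2, 4 members were lower (5.71%, against 9.2%); and without cohort 2, with 2 pools per tissue, 1 was lower and the share of all genes called lower was 3.58%.

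In complex I, which takes electrons from NADH, 6 of 34 members fell and 0 rose. The share that fell was 17.6%, near the 16.5% of all genes and 19.5% of bright genes called lower. The median difference was -0.27, at -0.19, -0.22 and -0.28 in the 3 cohorts. In 30 of 34 members the difference was negative (88.2%, against 54.7% of all genes and 61.7% of bright genes). The values ranged from -0.88 to 0.22. Among the 6 core subunits measured here, which carry the flavin and iron-sulfur clusters or sit beside them, 2 fell and the median was -0.31; among the 28 accessory subunits, 4 fell and the median was -0.27.

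Ndufs3, a core subunit of the peripheral arm, was 10.55, 10.55 and 10.57 in carotid body against 11.49, 11.55 and 11.28 in adrenal medulla (log2, cohorts 1, 2 and 3). The tissues did not overlap and the SD of the carotid body arrays was 0.01. The difference was -0.88 ± 0.12 (SE; limma, adjusted p = 0.00176), or 54.3% of the adrenal medulla level, and it was the one member called under all 18 other settings of the processing, with adjusted p from 0.000664 to 0.0499. Ndufs1, the largest core subunit and the holder of several iron-sulfur clusters, was 9.32, 9.38 and 9.68 against 10.12, 10.18 and 9.91. Every adrenal medulla value was the higher, by the least in cohort 3, and the difference was -0.61 ± 0.14 (adjusted p = 0.0179). Ndufs1 was no longer called without carotid body array 2, adrenal medulla array 1 or adrenal medulla array 2 (adjusted p of 0.061, 0.0582 and 0.08), or without cohort 1 or 2 (0.113 and 0.201).

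The other core subunits were not called on their brightest probe sets. Ndufs8 differed by -0.41, Ndufs7 by -0.21 and Ndufv1, which binds NADH through its flavin, by -0.21. Another probe set was called lower for Ndufs8 (-0.62, adjusted p = 0.0395, limma) and for Ndufs7 (-0.74, 0.00378). The remaining probe sets of Ndufs8 and those of Ndufv1 were not called. Ndufv2, its partner at the tip of the peripheral arm, differed by 0.11 on its brightest probe set and by -0.25 and -0.01 on its other probe sets.

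Among the accessory subunits, Ndufa10 was 10.71, 10.61 and 10.47 in carotid body against 11.30, 11.45 and 11.30 in adrenal medulla. It fell by 0.75 ± 0.12 (SE; adjusted p = 0.00373, limma), without overlap, and was called under all settings but the removal of cohort 2 (0.0725). Ndufa9, which lies where the peripheral arm meets the membrane arm, was 10.00, 10.18 and 10.26 against 10.68, 10.90 and 10.64, again without overlap. Its difference was -0.60 ± 0.13 (adjusted p = 0.0143), not called without adrenal medulla array 2 (0.065), cohort 1 (0.0697) or cohort 2 (0.143).

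Ndufab1 is the mitochondrial acyl carrier protein, which serves complex I and fatty acid synthesis. It was 11.45, 11.27 and 11.36 in carotid body against 12.08, 12.08 and 11.93 in adrenal medulla, a difference of -0.67 ± 0.11 (SE; adjusted p = 0.00507, limma). The probe sets of this gene disagreed. The other one above the median gene differed by -0.12 (adjusted p = 0.816), and of 3 dim ones, 1 was called lower (-0.86; 0.00231) and the others differed by -0.14 and -0.04. With the mean of its probe sets the adjusted p was 0.0683, and it was also not called without cohort 2 (0.0914). Ndufv3, an accessory subunit of the NADH-binding module, was the remaining called member of complex I, named because the count is small. It was 12.05, 11.97 and 11.79 against 12.33, 12.69 and 12.46 and fell by 0.56 ± 0.14 (adjusted p = 0.0236). The call was lost without carotid body array 2 (0.0593), adrenal medulla array 2 (0.0948) or 3 (0.0712), and without cohort 2 (0.183) or 3 (0.113).

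The brightest complex I probe sets showed much less difference. Ndufa1, a small X-linked subunit, was 12.84, 12.76 and 12.64 in carotid body against 12.96, 12.87 and 12.95 in adrenal medulla, a difference of -0.18 with every carotid body value just below every adrenal medulla value. Ndufb11, also X-linked, was 12.91, 12.84 and 12.60 against 12.94, 12.80 and 12.70, and its difference of -0.03 took either sign across settings. The complex I member with the largest difference toward carotid body was Ndufa5, an accessory subunit of the peripheral arm. At 11.38, 11.09 and 11.07 against 11.27, 10.57 and 11.04, it overlapped between tissues and was not called (0.22 ± 0.19, SE; adjusted p = 0.485).

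The complex I members below the median gene in brightness were Ndufb1 and Ndufb4, both small subunits of the membrane arm. Ndufb1 was 6.69, 6.33 and 6.50 against 6.85, 6.80 and 6.95 (difference -0.36), and Ndufb4 was 4.22, 4.12 and 4.19 against 4.70, 4.47 and 4.21 (difference -0.28). Neither was called. The Ndufb4 probe set lay at the 21.8th percentile of gene brightness. Its promoter held 3 matches to the NRF1 palindrome.

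In complex III, which passes electrons from ubiquinol to cytochrome c, 2 of 9 members fell and 0 rose. The share that fell was 22.2%, against 16.5% of all genes and 19.5% of bright genes. The median difference was -0.33, at -0.20, -0.34 and -0.36 in the 3 cohorts. In 8 of 9 members the difference was negative (88.9%, against 54.7% of all genes and 61.7% of bright genes). In 4 members all carotid body values lay below all adrenal medulla values (26.1% of all genes and 33.4% of bright genes). Uqcrfs1, the Rieske iron-sulfur protein at the catalytic centre of the complex, was 9.99, 9.91 and 9.87 in carotid body against 10.76, 10.81 and 10.60 in adrenal medulla. The tissues were well apart on every array, and the difference was -0.80 ± 0.11 (SE; adjusted p = 0.00236, limma), or 57.2% of the adrenal medulla level. It was called under every setting but the removal of cohort 2 (adjusted p = 0.0592).

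Uqcrc1, a core protein of the matrix side, was 10.04, 10.40 and 10.28 in carotid body against 10.98, 11.09 and 10.77 in adrenal medulla. It fell by 0.71 ± 0.14 (SE; adjusted p = 0.0106, limma), without overlap; the adjusted p was 0.0517 without adrenal medulla array 2, 0.0661 without cohort 1 and 0.0841 without cohort 2. Its partner Uqcrc2 differed by -0.25 and overlapped between tissues. Cyc1, which carries the haem that hands electrons to cytochrome c, differed by -0.38 and was not called (adjusted p = 0.105).

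Uqcrb, a small subunit near the ubiquinone site, had the brightest probe set of complex III and the only positive difference in it. It was 13.80, 14.07 and 13.94 in carotid body against 13.83, 14.04 and 13.91 in adrenal medulla, a difference of 0.01 that took either sign across settings. Uqcrh, the acidic hinge protein, was 12.22, 11.97 and 12.03 against 12.35, 12.25 and 12.30 (difference -0.22, not called), with every carotid body value below every adrenal medulla value.

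Cytochrome c, the mobile carrier between complexes III and IV, had a positive difference. Cycs was 12.05, 11.89 and 12.08 in carotid body against 11.93, 11.68 and 11.76 in adrenal medulla. The carotid body value was the higher in all 3 cohorts, but the tissues overlapped and the difference of 0.22 ± 0.12 (SE) was not called (adjusted p = 0.253, limma). Its other probe sets above the median gene gave -0.03 (adjusted p = 0.893) and 0.28 (0.168).

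In complex IV, the enzyme that reduces oxygen, 0 of 9 members were called by limma in either direction; at an unadjusted p under 0.05, 2 were lower and 1 was higher, against 24.2% and 14.9% of all genes. The median difference was -0.09, against -0.04 over all genes and -0.13 over bright genes. It was -0.02, -0.06 and -0.12 in the 3 cohorts, and without cohort 3 it was 0.005. The brightest members barely differed. Cox6c was 13.22, 13.05 and 12.77 in carotid body against 13.24, 12.96 and 13.12 in adrenal medulla (difference -0.09). Cox7a2, the isoform of subunit 7a found in most tissues, was 13.21, 13.17 and 13.08 against 13.22, 13.08 and 13.08 (difference 0.03). The signs of both differences turned under other settings. Cox5a, Cox5b and Cox8a differed by -0.26, -0.17 and -0.32, each with every carotid body value below every adrenal medulla value. None was called on its brightest probe set, and Cox8a came nearest (adjusted p = 0.0656, limma). A second Cox5a probe set (mean 11.67) was called lower (-0.50, adjusted p = 0.0153), and the remaining one was not (-0.22). Cox5a was also called with the mean of its probe sets and with the brightest one without a suffix for shared targets.

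The widest differences in complex IV came from its dimmer probe sets. Cox7c was 4.80, 4.52 and 5.78 in carotid body against 5.74, 6.05 and 6.46 in adrenal medulla, so that the highest carotid body array passed the lowest adrenal medulla array. Its difference of -1.05 ± 0.33 (SE) was the largest of any member in size, and it was not called (adjusted p = 0.0564, limma), although with the cohorts as a block the adjusted p was 0.0107. This is a small, widely expressed subunit, and its brightest probe set lay below the median gene. Cox8c, known as a testis isoform of subunit 8, was 7.50, 7.44 and 7.04 against 7.02, 6.80 and 6.95. The carotid body values were all the higher, the difference of 0.40 ± 0.15 was the largest toward carotid body, and it was not called (adjusted p = 0.101). Cox7b2, another testis-associated isoform, lay at the floor at 3.52, 3.62 and 3.67 against 3.48, 3.48 and 3.64. Cox7a2l, the supercomplex factor, differed by -0.01.

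In complex V, which makes ATP, 1 of 17 members fell and 0 rose. The share that fell was 5.88%, against 16.5% of all genes and 19.5% of bright genes. The median difference was -0.15, at -0.14, -0.16 and -0.10 in the 3 cohorts, against -0.13 over bright genes. In 12 members the difference was negative (70.6%, against 54.7% of all genes and 61.7% of bright genes). In 6 members all carotid body values lay below all adrenal medulla values (26.1% of all genes and 33.4% of bright genes). Atp5b, the catalytic beta subunit, was 11.59, 12.03 and 12.14 in carotid body against 12.65, 12.89 and 12.35 in adrenal medulla. The cohorts were uneven: the gap was widest in cohort 1 and narrowest in cohort 3. The difference was -0.71 ± 0.19 (SE; adjusted p = 0.0338, limma), or 61.0% of the adrenal medulla level. Removing array 1 or 2 of either tissue ended the call (carotid body first, adjusted p of 0.0757, 0.0707, 0.0884 and 0.127), as did removing cohort 1 (0.151) or 2 (0.212).

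The other subunits of the F1 head and central stalk were not called on their brightest probe sets. Atp5a1, the alpha partner of Atp5b in the head, differed by -0.22, Atp5c1 by -0.36, Atp5d by -0.18 and Atp5e by 0.14. Another probe set was called lower for Atp5d (-0.49, adjusted p = 0.0293, limma), as was a dim one for Atp5c1 (-0.57, 0.028). The other probe sets of Atp5a1 were not called. The median of the 5 F1 genes was -0.22. The 3 genes of the c-ring, which encode 1 mature protein, differed by -0.38 (Atp5g1), -0.13 (Atp5g2) and -0.06 (Atp5g3); Atp5g3, the brightest of them, was 12.94, 13.02 and 12.84 in carotid body against 13.04, 12.99 and 12.96 in adrenal medulla. The 9 genes of the peripheral stalk and other membrane parts had a median of -0.14. On their brightest probe sets, 0 were called at either level of p, adjusted or not. Another probe set of Atp5pb differed by -0.32 (limma, unadjusted p = 0.0162, adjusted p = 0.0624).

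Atp5h, a subunit of the peripheral stalk, was 13.08, 12.94 and 12.76 in carotid body against 13.27, 13.06 and 13.09 in adrenal medulla. Its difference of -0.22 was not called and the tissues overlapped at single arrays, although carotid body was the lower in each cohort. Atp5mpl, a small membrane subunit, had the largest difference of complex V toward carotid body, at 11.50, 11.53 and 11.44 against 11.45, 11.15 and 11.35 (0.18; adjusted p = 0.349).

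**Figure D2:**
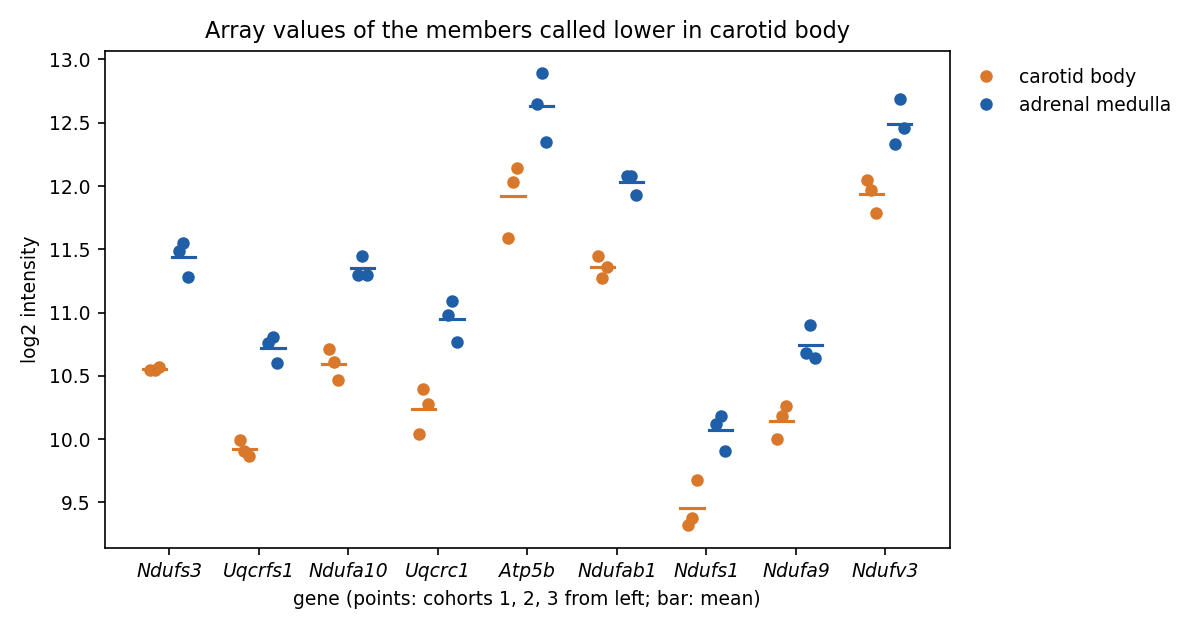
Log2 intensity (vertical axis) of the 9 members called lower in carotid body, 1 point per array (cohorts 1, 2 and 3 from left to right within each tissue) with a bar at the mean of 3 arrays. In each of these 9 genes all carotid body points (orange) lie below all adrenal medulla points (blue), with the narrowest gaps for Atp5b and Ndufs1.

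Treating the cohorts as a replicate block raised the count from 9 to 12 members lower (18.1% of all genes, 21.3% of bright genes), with 0 higher (11.5% and 14.4%). The 9 were all kept, and Cox7c, Ndufc1 (adjusted p = 0.14 without the block and 0.045 with it, limma) and Uqcrq (0.0869 and 0.0469) were added. Complex IV thus had 1 called member with the block and 0 without it.

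The answer for a gene depended in places on which of its probe sets was read. Of 44 members with several probe sets, 36 had at least 2 at or above the median gene in brightness. In 21 of these 36 the dimmest such probe set gave the more negative difference. The median over the 36 was -0.19 for the brightest and -0.23 for the dimmest probe sets, and 1 and 6 of them were called lower. Over all genes, 16.5% were called lower with the brightest probe sets and 17.5% with the dimmest. Uqcr10, a small subunit of complex III, differed by -0.33 (adjusted p = 0.236) on its brightest probe set and by -1.60 (0.000651, limma) on the dimmest. Its remaining probe set was also called lower (-0.99, adjusted p = 0.00164). Ndufs7, the core subunit next to the ubiquinone site of complex I, differed by -0.21 and -0.74 (adjusted p = 0.00378). Atp5a1 took opposite signs, at -0.22 and 0.26, neither called. Probe sets between the brightest and the dimmest, such as those called lower for Cox5a, Ndufs8, Ndufa7 and Uqcr10, are outside the counts over the 36. Which probe set reports the gene better was not tested.

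**Figure D3:**
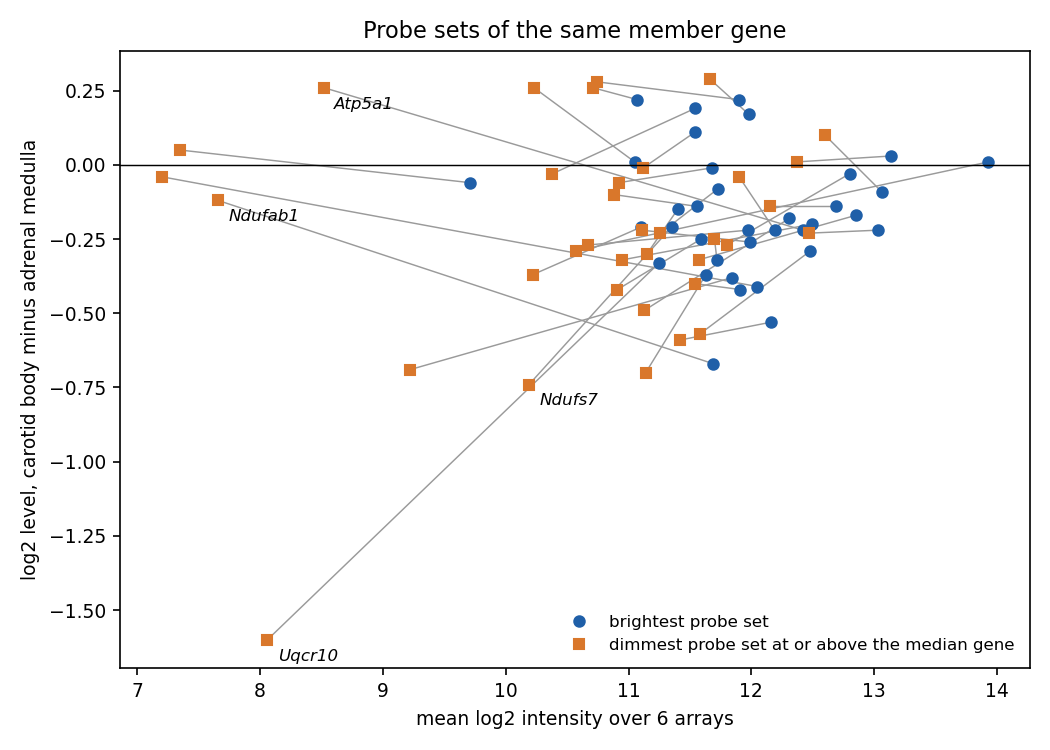
Difference in log2 level (carotid body minus adrenal medulla, vertical axis) against mean log2 intensity over 6 arrays (horizontal axis) for the 36 members with at least 2 probe sets at or above the median gene; a line joins the brightest (blue circle) and dimmest (orange square) such probe set of each gene. Most pairs stay within a narrow band below 0, while Uqcr10 goes from -0.33 to -1.60, Ndufs7 from -0.21 to -0.74 and Ndufab1 from -0.67 to -0.12.

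The genes that complete the pathway and maintain mitochondria were described in the same way, by counts and medians, without a test of the lists. Complex II, which feeds electrons from succinate into the chain, had 3 of 4 genes lower and a median difference of -0.68. Sdhb, its iron-sulfur subunit, fell by 0.78 (limma, adjusted p = 0.037) and Sdha, its flavoprotein, by 0.70 (0.00816). Sdhb was not called with quantile normalization (0.0506) or in 5 of the 6 fits without 1 array (up to 0.138), nor without cohort 2 (0.319) or 3 (0.0774), and Sdha was not called with the mean of its probe sets (-0.10, 0.544) or without cohort 1 or 2 (0.0618 and 0.0646). The citric acid cycle, which holds these 4 genes too, had 11 of 17 lower (64.7%, against 16.5% of all genes) and 0 higher, with a median of -0.58. Dld, the E3 component shared by several mitochondrial dehydrogenases, fell by 1.08 (adjusted p = 0.00552), and Suclg2, a subunit of succinyl-CoA ligase, by 0.90 (0.0036); with the mean of its probe sets Dld differed by -0.38 (0.0962), and without cohort 2 Suclg2 had an adjusted p of 0.0688.

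Assembly factors build complexes I, III, IV and V from their subunits. Of 40 such genes, 22 were lower (55.0%, against 16.5% of all genes) and 0 higher (against 10.9%). Their median was -0.55, and the difference from the subunits was not tested. Tmem70, needed to build ATP synthase, was 8.54, 8.11 and 8.57 in carotid body against 9.79, 9.45 and 9.43 in adrenal medulla, and fell by 1.15 (adjusted p = 0.00284, limma). Atpaf1, a chaperone of the beta subunit Atp5b, was 7.87, 7.79 and 7.94 against 9.13, 8.88 and 8.81, and fell by 1.07 (0.00106). The median probe set brightness of this list was 8.28, against 11.68 for the subunits.

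Mitochondrial ribosomal proteins, which translate the subunits encoded by mitochondrial DNA, had 37 of 76 genes lower (48.7%, against 16.5% of all genes). Their median was -0.47, and 0 were higher, against 10.9% of all genes. Mrps11 was 7.86, 7.83 and 7.65 against 9.60, 9.43 and 8.90, a difference of -1.53 (adjusted p = 0.00133, limma), and Mrpl38 differed by -1.23 (0.00478), but by 0.07 (0.783) on its brightest probe set without a suffix for shared targets. Of cytosolic ribosomal proteins, 0 of 46 were called by limma in either direction, 0 were lower and 2 higher at an unadjusted p under 0.05, and the median was -0.04. The brightest of them, Rpl41 and Rps29, differed by -0.04 and 0.12. Rpl41 ranged from -0.80 to 0.09 under the other settings and was not called. The median level of cytosolic ribosomal proteins was 13.31, against 9.29 for the mitochondrial ones, and an effect of brightness was not tested. With the cohort block, 2 cytosolic ribosomal proteins were called higher, against 11.5% of all genes.

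Carriers and pores of the mitochondrial membranes had 4 of 14 genes lower (28.6%, against 16.5% of all genes) and 0 higher (against 10.9%). Their median was -0.38. Slc25a13, an aspartate and glutamate carrier, differed by -1.22 (adjusted p = 0.000464, limma) and Slc25a10, the dicarboxylate carrier, by -0.71 (0.00596). Regulators of mitochondrial biogenesis and mitochondrial DNA went both ways, with 4 of 18 lower (22.2%, against 16.5% of all genes) and 2 higher (11.1%, against 10.9%). Their median was -0.45. Ppargc1a, the coactivator PGC-1 alpha that promotes mitochondrial biogenesis, was 6.17, 6.92 and 6.57 in carotid body against 4.50, 4.02 and 4.17 in adrenal medulla, and rose by 2.32 (adjusted p = 0.000357). Nrf1, the gene of nuclear respiratory factor 1, was 6.62, 6.71 and 5.98 against 5.80, 5.35 and 5.74 and rose by 0.80 (0.0343); it was no longer called in 5 of the 6 fits without 1 array (up to 0.128), nor without cohort 1 (0.113) or 2 (0.299). Both were below the median gene level of 6.93 on every array.

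These list counts moved with the arrays used. Carotid body array 1 held the most cortex marker RNA of its tissue, though less than every adrenal medulla array. Without it, 22 assembly factors, 38 mitochondrial ribosomal proteins, 8 citric acid cycle genes and 3 complex II genes were lower. The medians were -0.55, -0.51, -0.52 and -0.64. Regulators then had 2 lower and 1 higher, and of all genes 13.8% were lower and 10.5% higher. Without cohort 2 the counts were 2 of 40, 4 of 76, 1 of 17 and 0 of 4, against 3.58% of all genes called lower. The medians were then -0.50, -0.42, -0.50 and -0.52. With each array centred on its median, the counts were 28, 51, 13 and 4, against 21.7% of all genes called lower.

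**Figure D4:**
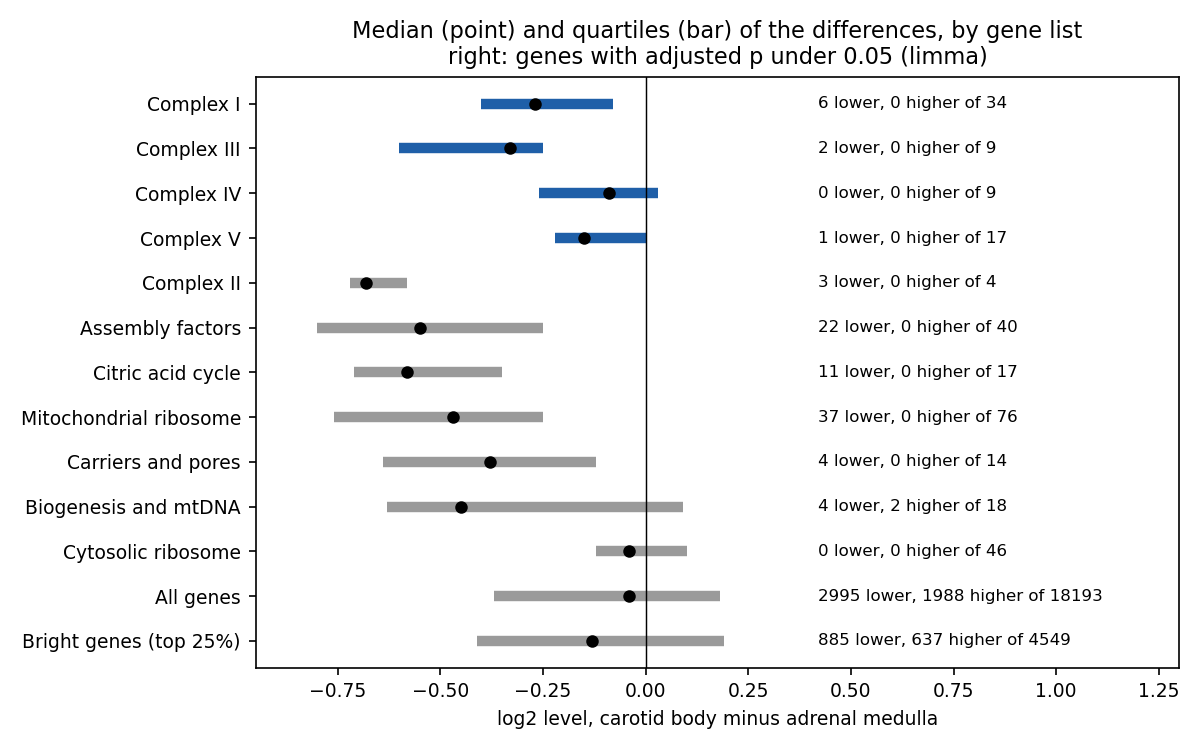
Median (point) and quartiles (bar) of the log2 differences, carotid body minus adrenal medulla (horizontal axis), for the 4 complexes (blue) and the other gene lists and backgrounds (grey), with counts of genes at an adjusted p under 0.05. Complexes I, III, IV and V lie between -0.33 and -0.09, while complex II, assembly factors, the citric acid cycle and the mitochondrial ribosome lie between -0.68 and -0.47. All genes lie at -0.04 and bright genes at -0.13, near complex IV (-0.09) and complex V (-0.15).

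The relatives left out of the members had differences of several sizes. Ndufa4l2, a low-oxygen relative of Ndufa4, rose by 1.49 (adjusted p = 0.011, limma), Cox6b2 by 1.40 (0.0047) and Cox8b by 0.52 (0.0427, and 0.0678 with the cohort block), while Cox7a1 differed by -1.56 without being called (0.0809, and 0.0123 with that block; -2.23 and 0.00289 without carotid body array 1). The common forms Ndufa4, Cox6a1 and Cox6b1 differed by -0.22, -0.11 and -0.06.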

How the data were processed

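Per the labels' protocols, RNA of 6 pools was labelled by in vitro transcription from the 3′ end. The authors deposited 1 log2 value per probe set and array, made in Expression Console (Affymetrix) according to the submitters' processing notes. Their version, summarisation and normalization were not given in the sources used here. The log2 scale was read from the values, which ran from 2.70 to 14.97. The deposited values were used without further normalization. Carotid body arrays had medians of 5.25 to 5.32, adrenal medulla arrays 5.16 to 5.18. No detection calls were used, and the number of arrays limits the precision.

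Of 45101 probe sets, 64 controls were left out and 45037 were fitted with limma 3.58.1 in R 4.3.3 (2 groups, no block). Symbols came from the platform annotation; 34945 probe sets had 1 symbol, and 10 that list a member with another gene were not used. The members and lists were chosen with earlier results of these data known. Within each complex, values by array are given for up to 5 called members, the 2 brightest, the largest difference in each direction, Cycs and members below the median gene. The fit was tested on simulated data with independent noise for each value. Those data held no cohort, cell makeup or RNA length effects, so that test cannot bear on the calls made here.

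The cohort numbers pair the samples, as the series states. Xist differed between the tissues in every cohort (8.84 to 10.96 in carotid body, 4.45 to 5.60 in adrenal medulla). Whether both pools of a cohort came from the same mice was not tested. Deviations from the tissue means correlated at 0.22, 0.0836 and 0.163 over probe sets for same cohorts and at -0.214 to 0.101 for others. Genes of the mitochondrial genome were not analysed here.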

Additional observations from a re-analysis of the deposited data

How the results depend on the processing

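The arrays were few and were read without detection calls. Counts and medians by complex were recomputed under 18 alternatives, 1 of which, the dimmest probe set of a gene at or above the median gene, was chosen after seeing the data; 130 of these values stayed near the original, 67 moved and 1 turned its sign. A choice of pseudocount was not run, since the values are log2. Members lower in carotid body, 9 in the report, numbered 21 of 70 with arrays centred on their median (against 21.7% of all genes), 16 with the mean of a gene's probe sets (22.9%, against 17.8%), 14 with the dimmest probe set (against 17.5%), and 1 to 13 when an array or a cohort was left out (1.43% to 18.6%, against 3.58% to 19.0%). Members higher numbered 1 with array weights and 0 to 1 when leaving out arrays. Centring moved the median difference of all genes from -0.04 to -0.15 and the calls over all genes from 2995 lower and 1988 higher to 3956 and 1645. With the cohorts as a replicate block, 12 members were lower, 7 of complex I, 3 of complex III, 1 of complex IV and 1 of complex V, all medians were the same, and 0 were higher.

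Leaving out arrays or cohorts gave 1 to 10 lower members of complex I, 0 to 3 of complex III, 0 to 1 of complex IV and 0 to 1 of complex V, and medians of -0.28 to -0.16 over all members, -0.30 to -0.14 for complex I, -0.44 to -0.24 for complex III, -0.20 to 0.005 for complex IV and -0.21 to -0.10 for complex V. Centred arrays gave 12, 4, 2 and 3 lower members in complexes I, III, IV and V, with medians of -0.38, -0.45, -0.21 and -0.27, and -0.33 over all. Quantile normalization gave medians of -0.17 over all, -0.21 for complex I and -0.11 for complex V, and array weights -0.18 over all and -0.18 for complex I. The mean of probe sets gave 2 lower in complex IV and 3 in complex V and a complex IV median of -0.03. Probe sets without a suffix for shared targets gave 1 and 2 lower in these complexes and a median of -0.27 over the 57 members left. The dimmest probe sets gave 2 lower in complex V and a median of -0.26 over all. In complex IV, 1 was lower after removal of dim probe sets and with array weights, and 2 when the variances were fitted robustly with an intensity trend.

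Differences close to 0 turned their sign. Cox6c was 0.0032 with the mean of probe sets, 0.10 with the dimmest and -0.20 to 0.04 when leaving out arrays. Cox7a2 was -0.09 and Cox7b2 -0.05 with centred arrays, and Cox7a2 was -0.0015 to 0.08 when leaving out arrays. Ndufb11 was 0.02 with quantile normalization, 0.0064 with array weights and -0.10 to 0.06 when leaving out arrays. Uqcrb was -0.11 with centring, -0.14 with the mean of probe sets, -0.29 with the dimmest or the one without a suffix, and -0.06 to 0.08 when leaving out arrays. The cause of these changes was not tested. Mrpl38 was 0.07 with the probe set without a suffix. Rpl41 was 0.01 with array weights. Leaving out arrays gave -0.19 to 0.09 for Rpl41, -0.12 to 0.41 for Cox6a2 and -0.17 to 0.04 for Cox6b1. Over the members and list genes with values by setting, 51 values lost their call under an alternative and 12 gained one.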
